A study of Mus musculus with 6 samples.

Results

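The genes described here are 10 smooth muscle and contractile genes, Acta2, Actg2, Tagln, Myh11, Myl9, Cnn1, Des, Lmod1, Myocd and Cspg4, chosen by name from a count table of 52550 mouse genes. All 10 had a row in the table and passed the filter on low counts. The libraries were made from type II alveolar cells (AT2 cells), which coat the air sacs with surfactant, of C57BL/6 mice; 3 are labelled Grp78KO and 3 Control. Both groups carried Sftpc+/creERT2, in which the surfactant protein C gene drives a Cre that tamoxifen switches on, and Grp78f/f, floxed alleles of the gene for the endoplasmic reticulum chaperone Grp78. The genotype label of the Grp78KO libraries adds tamoxifen and that of the Control libraries excludes it, whereas the day label of both groups counts 10 days after a tamoxifen injection, so whether the controls received it is unclear. The protocols in the labels describe dispase digestion and magnetic beads that removed CD45-positive cells and then captured EPCAM-positive ones, a selection that does not target muscle. The labels do not say that replicates were separate animals, and p-values therefore measure only the spread between these libraries.

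Smooth muscle contracts when myosin, built from the heavy chain Myh11 and the regulatory light chain Myl9, pulls on thin filaments of the smooth muscle actins Acta2 and Actg2. Calponin (Cnn1) and transgelin (Tagln) bind those filaments, leiomodin (Lmod1) nucleates them, and desmin (Des) forms the intermediate filaments that link them. Myocardin (Myocd) switches these genes on as a partner of serum response factor, SRF, which binds a short promoter element called the CArG box. In the lung these genes mark the muscle of airways and vessels. Acta2, Tagln and Myl9 are also used by myofibroblasts, while Myh11, Lmod1 and Myocd are more restricted to mature muscle, and Cspg4, a proteoglycan of the cell surface, marks pericytes and other mural cells.

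The promoter sequences shown here come from RefSeq (GRCm38.p6), which matched 6 of the 10 genes: Acta2, Myl9, Lmod1, Cnn1, Des and Cspg4. Tagln, Myh11, Actg2 and Myocd had no entry. The CArG box, CC, then a core of only A or T, then GG, 10 letters in all, was searched in the 250 bases before each start site. The pattern reads the same on both strands, no matches overlapped, and matches with 1 core letter replaced but CC and GG intact were also counted. Acta2 and Myl9 are shown because they held matches, and Lmod1 because it was the only one of the 10 genes to fall. The Myl9 and Lmod1 lines are the part of the window before the gene as GENCODE M21 draws it, and the Acta2 lines are its matches with 10 bases on each side. Capitals mark the matches, and each line reads 5′ to 3′ on the strand of the gene.
Acta2, chr19:34255438-34255467, minus strand: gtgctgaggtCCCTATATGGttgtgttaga
Acta2, chr19:34255388-34255417, minus strand: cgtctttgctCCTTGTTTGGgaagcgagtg
Myl9, chr2:156775214-156775419, plus strand: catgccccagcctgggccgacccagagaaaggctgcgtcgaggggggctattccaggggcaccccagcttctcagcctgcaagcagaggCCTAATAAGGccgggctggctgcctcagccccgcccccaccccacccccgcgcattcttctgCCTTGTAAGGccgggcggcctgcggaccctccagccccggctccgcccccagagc
Lmod1, chr1:135324563-135324806, plus strand: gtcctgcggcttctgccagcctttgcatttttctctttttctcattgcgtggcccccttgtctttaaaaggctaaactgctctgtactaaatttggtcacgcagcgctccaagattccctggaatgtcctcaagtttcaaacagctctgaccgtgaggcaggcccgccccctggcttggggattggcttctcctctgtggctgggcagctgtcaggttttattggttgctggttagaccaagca

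The Acta2 boxes begin 84 and 34 bases before the RefSeq start site, and each has 1 replaced core letter. Both lie inside the gene as GENCODE M21 draws it, which starts at base 34255590 on the minus strand. Those of Myl9 begin 161 and 99 bases before it, the first without a replaced letter. A CArG box without replacement was present in 1.47% of 32851 RefSeq promoter windows of this length, and one with at most 1 replacement in 8.59%. These letters were not found in the windows of Lmod1, Cnn1, Des and Cspg4.

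Library totals ranged from 110770711 to 128129307 counts in the libraries labelled Grp78KO and from 131235053 to 149520306 in the controls. Hspa5, the gene of Grp78, was at 9262, 9180 and 3809 CPM in libraries 1, 2 and 3 labelled Grp78KO and at 1355, 1289 and 925 CPM in controls 1, 2 and 3; CPM are counts scaled to the size of the library with TMM factors. The gene named in the knockout label was thus 6.24-fold higher in those libraries (log2 fold 2.64 ± 0.361 SE; adjusted p = 0.00208 by edgeR). Counts per gene do not separate floxed exons, so they do not check the deletion. Every direction given here is between libraries as labelled, and "in Grp78KO" means in the 3 libraries with that label. Sftpc, the surfactant gene that defines AT2 cells, was at 14460 to 18606 CPM in the libraries labelled Grp78KO and 43706 to 54845 CPM in controls. Airway markers were also abundant: 8 of them summed to 32295 to 35906 CPM in Grp78KO and 31165 to 56989 CPM in controls. The sum of 12 AT2 markers was 46506 to 57431 CPM in Grp78KO and 113397 to 131208 CPM in controls. Library 3 labelled Grp78KO stood apart: Ptprc, the gene of the CD45 antigen used to remove leukocytes, was at 10.99 CPM there and at 0.963 to 2.07 CPM in the other 5 libraries. Control 3 held 934 CPM summed over 17 fibroblast markers, against 482 and 489 CPM in controls 1 and 2.

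In the libraries labelled Grp78KO, 6 of the 10 genes rose, 1 fell and 3 did not pass the test. Acta2, Actg2, Tagln, Myl9, Des and Cspg4 were higher by edgeR's quasi-likelihood test at an adjusted p under 0.05 over 18849 genes, Lmod1 was lower, and Myh11, Cnn1 and Myocd were not called. Of all genes tested, 18.0% were called higher and 18.8% lower, so that 36.8% changed in one direction or the other. The 7 called genes had groups that did not overlap, 6 higher and 1 lower; over all genes tested this held for 51.6%, with 25.0% higher and 26.6% lower. The median log2 fold was 1.16 for the 10 genes and 0.02 for all genes tested. In bulk RNA, a change in the number of cells of a type and a change in RNA per cell cannot be told apart.

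**Figure D1:**
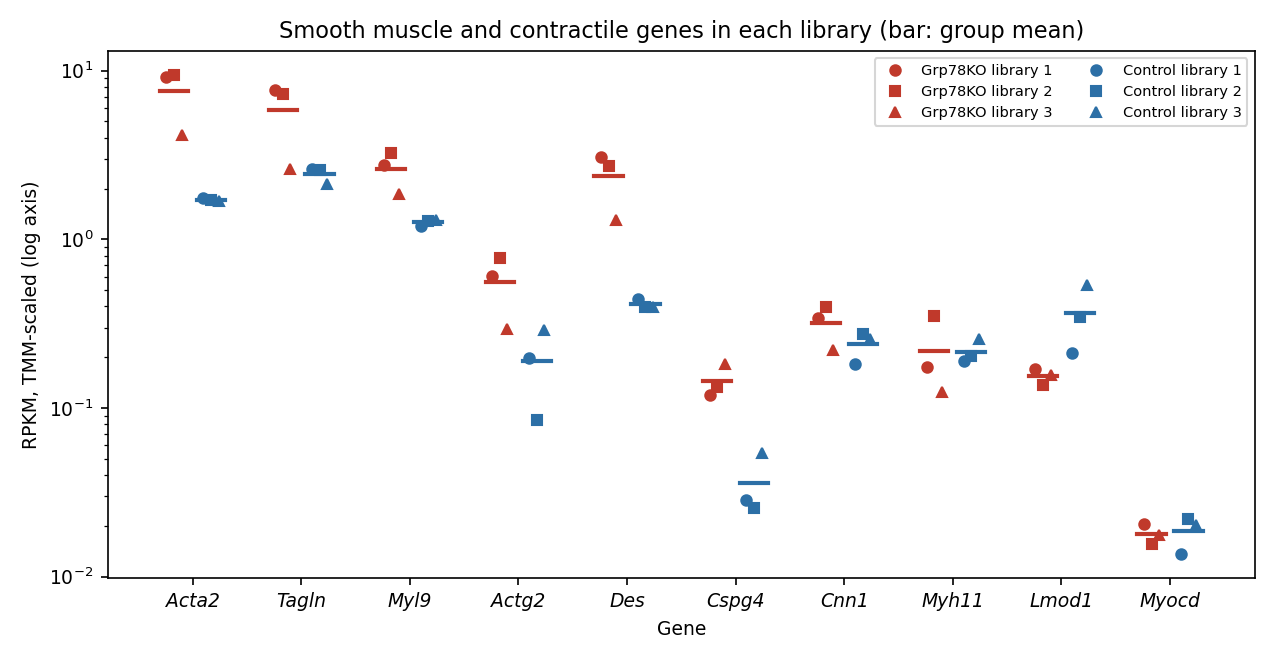
RPKM (TMM-scaled CPM per kilobase of exon, log axis) of the 10 genes in the 3 libraries labelled Grp78KO (red, left) and the 3 controls (blue, right); each point is a library and each bar a group mean. Acta2 averaged 7.59 RPKM in Grp78KO and 1.72 RPKM in Control, while Myh11 averaged 0.218 RPKM in Grp78KO and 0.216 RPKM in Control.

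All of these genes were scarce in these libraries, which also held airway markers. Per length, as RPKM (CPM per kilobase of exon), Acta2 was the most abundant of the 10 in the libraries labelled Grp78KO, at a mean of 7.59 RPKM, and was at 1.72 RPKM in controls. Tagln stood at 5.86 RPKM in Grp78KO and 2.43 RPKM in controls, where it led the order. Sftpc, for scale, stood at 15658 RPKM in Grp78KO and 47130 RPKM in controls. In controls the order below them was Myl9 (1.27 RPKM), Des (0.412 RPKM), Lmod1 (0.364 RPKM), Cnn1 (0.239 RPKM), Myh11 (0.216 RPKM), Actg2 (0.191 RPKM), Cspg4 (0.036 RPKM) and Myocd (0.0186 RPKM). The single-library ranges of Tagln, Acta2 and Myl9 did not overlap with one another. Those of Lmod1, Cnn1, Myh11 and Actg2 did, and that of Des overlapped with that of Lmod1, so the order of these neighbours is not resolved. In the libraries labelled Grp78KO, Lmod1 (0.154 RPKM) ranked below Actg2 (0.559 RPKM), Cnn1 (0.32 RPKM) and Myh11 (0.218 RPKM).

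Among the actins, Acta2, smooth muscle alpha actin (chromosome 19, 34241090 to 34255590, minus strand, GRCm38), was at 20.1, 20.8 and 9.10 CPM in libraries 1, 2 and 3 labelled Grp78KO and at 3.87, 3.78 and 3.69 CPM in the controls. Every library labelled Grp78KO lay above every control, and library 3 was the lowest of its group. The level was 4.41-fold higher, a log2 fold of 2.14 (SE 0.297; adjusted p = 0.00228 by edgeR). The call held in each of the 16 alternative fits. Actg2, the gamma actin of visceral smooth muscle (chromosome 6, 83512905 to 83536265, minus strand), was at 0.949, 1.20 and 0.461 CPM in Grp78KO and 0.307, 0.133 and 0.452 CPM in controls. Its library 3 labelled Grp78KO lay barely above control 3. The log2 fold was 1.55 (SE 0.517; adjusted p = 0.0496, edgeR), and the call ended with the replicate number as a block (edgeR adjusted p = 0.104) with limma-voom (adjusted p = 0.058), and when control 1 or 2 or library 1 or 2 labelled Grp78KO was left out (edgeR adjusted p = 0.117 to 0.159). No stretch of 150 bases was shared between the GENCODE M21 coding transcripts of Acta2 or Actg2 and those of the other actins, so a sequence of that length tells these genes apart.

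The intermediate filament gene Des and the actin-binding genes Tagln and Cnn1 had log2 folds of 0.42 to 2.52. Des, desmin (chromosome 1, 75360329 to 75368579, plus strand), was at 11.6, 10.3 and 4.88 CPM in Grp78KO and 1.67, 1.49 and 1.49 CPM in controls. It had the largest log2 fold of the 10 genes, 2.52 (SE 0.312; adjusted p = 0.00145, edgeR), which is 5.75-fold. The controls were close together (SD 0.104 CPM). An antisense gene that overlaps 5.86% of its exon bases had 0 to 0.0588 CPM in the 6 libraries. Tagln, transgelin (chromosome 9, 45929619 to 45936058, minus strand), was at 15.3, 14.4 and 5.19 CPM in Grp78KO and 5.17, 5.10 and 4.22 CPM in controls. Libraries 1 and 2 labelled Grp78KO were well above the controls, and library 3 was level with controls 1 and 2. The log2 fold of Tagln was 1.27 (SE 0.377; adjusted p = 0.0359, edgeR), and leaving out any 1 library other than library 3 labelled Grp78KO ended the call (edgeR adjusted p = 0.0927 to 0.115), as did limma-voom (adjusted p = 0.0827) and testing without a filter on low counts (edgeR adjusted p = 0.0969). An antisense gene and Pcsk7 overlap 62.4% and 5.43% of the exon bases of Tagln; Pcsk7 fell (log2 fold -0.30, edgeR adjusted p = 0.0241), and the antisense gene was not analysed here. Cnn1, calponin (chromosome 9, 22099216 to 22109630, plus strand), was at 0.941, 1.08 and 0.602 CPM in Grp78KO and 0.50, 0.754 and 0.704 CPM in controls, with overlapping groups. Its log2 fold was 0.42 (95% interval -0.29 to 1.13, edgeR adjusted p = 0.312).

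Of the 2 myosin genes, Myl9 was called higher and Myh11 was not called. Myl9, the regulatory light chain (chromosome 2, 156775420 to 156781658, plus strand), was at 3.21, 3.76 and 2.16 CPM in Grp78KO and 1.40, 1.50 and 1.52 CPM in controls, with no overlap. It was 2.06-fold higher, with a log2 fold of 1.04 (SE 0.231; adjusted p = 0.0119, edgeR). The edgeR adjusted p was 0.0517 without control 2 and 0.0529 without library 2 labelled Grp78KO. Myh11, the heavy chain (chromosome 16, 14194535 to 14291372, minus strand), was at 1.33, 2.68 and 0.95 CPM in Grp78KO and 1.45, 1.54 and 1.94 CPM in controls. Libraries 1 and 3 labelled Grp78KO lay below the controls and library 2 above them. The log2 fold was 0.01 with a 95% interval of -0.87 to 0.88 (edgeR adjusted p = 0.99), and it ran from -0.53 to 0.43 over the alternatives, none of which called it.

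**Figure D2:**
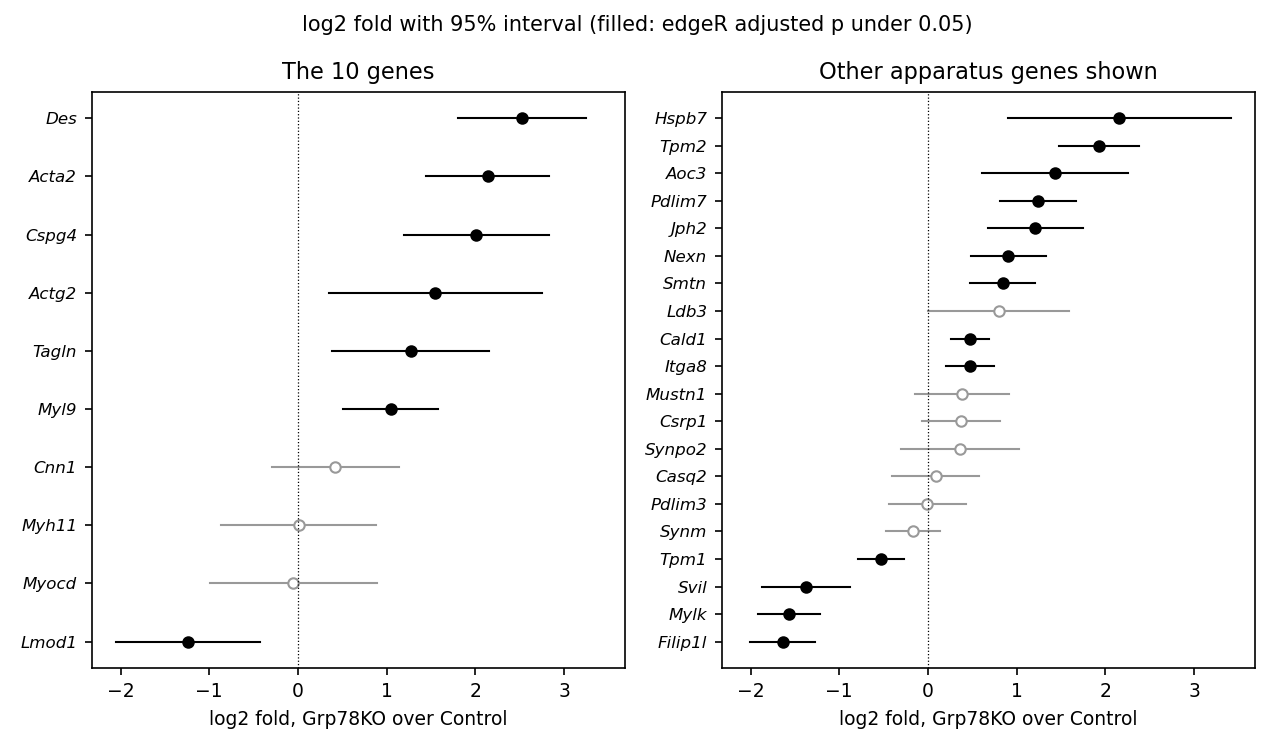
Log2 fold, Grp78KO over Control, with its 95% interval, for the 10 genes (left) and 20 other tested genes of the smooth muscle apparatus (right); filled points had an edgeR adjusted p under 0.05. Des (2.52) and Acta2 (2.14) lead the left panel and Lmod1 (-1.24) ends it, and Mylk (-1.57) and Filip1l (-1.64) end the right panel.

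Lmod1 was called lower and Myocd was not called. Lmod1, the leiomodin of smooth muscle (chromosome 1, 135324807 to 135368065, plus strand), was at 0.669, 0.538 and 0.617 CPM in Grp78KO and 0.842, 1.36 and 2.11 CPM in controls. All 3 libraries labelled Grp78KO lay below the lowest control, and the controls were spread wider (SD 0.0662 CPM in Grp78KO and 0.639 CPM in controls). The log2 fold was -1.24 (SE 0.348; adjusted p = 0.0278, edgeR). With control 2 or 3, or Grp78KO library 1 or 2, left out in turn the edgeR adjusted p was 0.0662 to 0.096, and scaling by library size alone gave an edgeR adjusted p of 0.0738. Myocd (chromosome 11, 65176561 to 65269989, minus strand) had 18, 12 and 16 counts in Grp78KO and 10, 19 and 17 counts in controls, few for libraries of this size. Its log2 fold was -0.05 (95% interval -0.99 to 0.89, edgeR adjusted p = 0.931), an interval that holds both falls and rises, so its direction is not resolved.

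Cspg4, the mural cell proteoglycan (chromosome 9, 56865033 to 56899870, plus strand), was at 1.43, 1.60 and 2.18 CPM in Grp78KO and 0.342, 0.303 and 0.643 CPM in controls. It was the only one of the 6 called higher with its highest value in library 3 labelled Grp78KO, the library in which the other 5 were lowest. The log2 fold was 2.01 (SE 0.351; adjusted p = 0.00493, edgeR), and it was called in each of 15 alternatives.

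**Figure D3:**
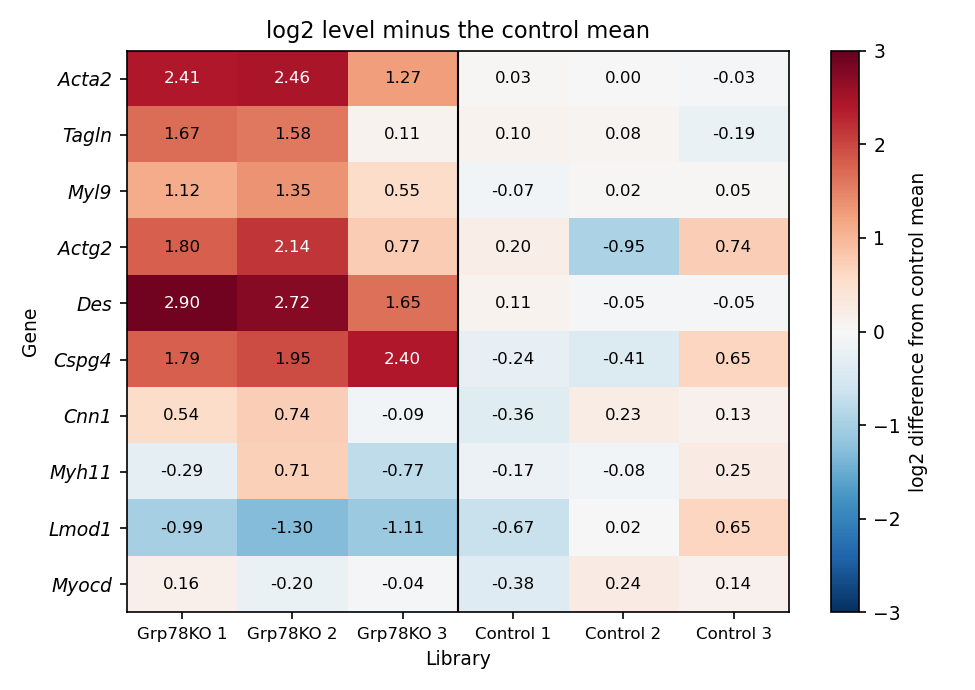
Log2 level of the 10 genes (rows) in each library (columns) after subtracting the control mean, with a pseudocount of 0.01 CPM. Acta2, Des, Tagln, Actg2 and Myl9 were less raised in Grp78KO library 3 (0.11 to 1.65) than in libraries 1 and 2 (1.12 to 2.90), and Lmod1 lay between -1.30 and -0.99 in the 3 Grp78KO libraries.

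Ratios of these genes within a library do not depend on the scaling. Acta2 counts were 15.1, 7.76 and 9.58 times those of Myh11 in libraries 1, 2 and 3 labelled Grp78KO and 2.67, 2.46 and 1.90 times in controls 1, 2 and 3. The ratio of Acta2 to Lmod1 was 30.1, 38.7 and 14.8 in Grp78KO and 4.59, 2.78 and 1.75 in controls. Des per Acta2 was 0.575, 0.494 and 0.536 in Grp78KO and 0.431, 0.393 and 0.402 in controls, while Tagln per Acta2 was 0.762, 0.694 and 0.57 in Grp78KO and 1.34, 1.35 and 1.14 in controls. None of these 4 ratios overlapped between the groups; each gave p = 0.10 in a two-sided exact permutation test (n = 3 per group), which is the smallest p that 3 libraries against 3 allow. The ratio of Acta2 to Actg2 overlapped, at 21.2, 17.3 and 19.8 in Grp78KO and 12.6, 28.4 and 8.17 in controls (exact permutation p = 0.50).

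Most fibroblast markers rose in the same libraries. Of 17 fibroblast markers, 12 were called higher, with a median log2 fold of 1.22, and none was called lower by edgeR, DESeq2 or limma-voom (0 at an unadjusted p under 0.05). Their summed level was 1516, 1628 and 1766 CPM in libraries 1, 2 and 3 labelled Grp78KO and 482, 489 and 934 CPM in controls. Npnt, 1 of the 17, was not called (log2 fold -0.05, edgeR adjusted p = 0.818) and made up a large part of the control sums. It was at 179, 190 and 264 CPM in Grp78KO and 199, 212 and 246 CPM in controls. The ratios to the sum given below include Npnt and were not computed without it. Col6a3, a collagen VI chain, rose by a log2 fold of 2.72, and the fibroblast receptor gene Pdgfra by 1.45; without control 2 or library 1 labelled Grp78KO, 6 and 7 of these markers were higher. Within each group, the library with the highest sum did not have the highest Acta2 level. Control 3 had the highest sum of the controls, where Acta2 was nearly level (3.87, 3.78 and 3.69 CPM). Library 3 labelled Grp78KO had the highest sum and the lowest Acta2 level of its group. Markers in the sum differed there: Col1a1 was at 297, 323 and 404 CPM in Grp78KO and Pdgfra at 24.9, 25.8 and 17.4 CPM. Acta2 per Pdgfra was 0.807, 0.805 and 0.523 in Grp78KO and 0.546, 0.538 and 0.341 in controls, with overlap (exact permutation p = 0.30). Acta2 per fibroblast marker CPM was 0.0133, 0.0128 and 0.00515 in Grp78KO and 0.00803, 0.00773 and 0.00395 in controls, with overlap (exact permutation p = 0.30, n = 3 per group). Myh11 per fibroblast marker CPM was 0.000878, 0.00165 and 0.000538 in Grp78KO and 0.00301, 0.00314 and 0.00208 in controls, without overlap (exact permutation p = 0.10). The part of stromal cells in the changes of the 10 genes was not tested.

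**Figure D4:**
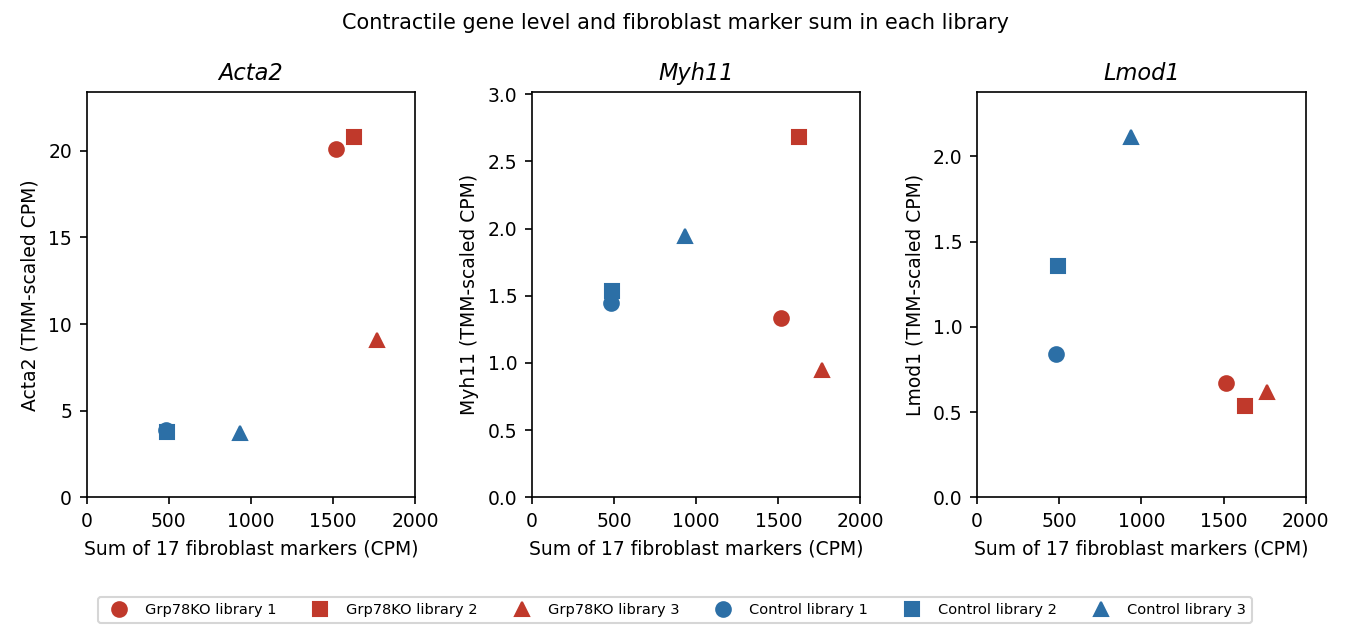
Level of Acta2, Myh11 and Lmod1 (TMM-scaled CPM, vertical axes) against the summed level of 17 fibroblast markers (CPM, horizontal axes) in each library. The sum includes Npnt, which was not called and was at 199, 212 and 246 CPM in controls 1, 2 and 3. The Grp78KO libraries lie at sums of 1516 to 1766 CPM and the controls at 482 to 934 CPM, and control 3, with 934 CPM, has an Acta2 level of 3.69 CPM, close to the 3.87 and 3.78 CPM of the other controls.

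Pericyte markers were mixed. Of 13, a list that includes Cspg4, 6 were called higher and 1 lower, with a median log2 fold of 0.66. Pdgfrb, the platelet-derived growth factor receptor of mural cells, rose by a log2 fold of 1.57; it was at 6.67, 8.41 and 7.58 CPM in Grp78KO and 2.02, 1.94 and 3.67 CPM in controls. Mcam rose by 1.02 and the channel gene Kcnj8 by 1.55, whereas Cox4i2, a cytochrome oxidase subunit of pericytes and smooth muscle, fell by 0.91; with scaling by library size alone edgeR called 0 of the list lower (1 at an unadjusted p under 0.05). The pericyte genes Higd1b (0.103, 0.151 and 0.0425 CPM in Grp78KO and 0.0702, 0.303 and 0.0613 CPM in controls) and Rgs5 (0.574 to 1.06 CPM in Grp78KO and 0.283 to 0.64 CPM in controls) were low and not called. Of 10 mesothelial markers, 9 were called higher (median 0.70), with Msln, mesothelin, up by a log2 fold of 1.07. Of 12 endothelial markers, 1, Vwf, was higher (log2 fold 0.95), without library 3 labelled Grp78KO 8 were, and without any other 1 library edgeR called 0 higher (1 to 2 at an unadjusted p under 0.05).

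The rest of the smooth muscle apparatus moved both ways. Of 22 other genes, 21 passed the filter, 9 were called higher and 5 lower, and the median log2 fold was 0.38. Tpm2, the beta tropomyosin of smooth muscle, was at 6.44, 7.02 and 4.64 CPM in Grp78KO and 1.44, 1.71 and 1.59 CPM in controls (log2 fold 1.93, SE 0.194; adjusted p = 0.000784, edgeR). On the log2 scale, Pdlim7, an actin-associated scaffold, rose by 1.24, the membrane-coupling gene Jph2 by 1.21 and smoothelin, Smtn, by 0.84. The myosin light chain kinase gene Mylk, whose product switches on the light chain encoded by Myl9, fell: 36.3, 40.7 and 53.3 CPM in Grp78KO and 120, 131 and 137 CPM in controls (log2 fold -1.57, SE 0.15; adjusted p = 0.000729, edgeR). Filip1l fell by 1.64, supervillin, Svil, by 1.38 and Tpm1 by 0.53 on the log2 scale. These falls were in abundant RNAs, with control means of 1701 CPM for Filip1l, 316 CPM for Tpm1 and 114 CPM for Svil. Control means of the risers Tpm2, Pdlim7, Jph2 and Smtn were 1.58, 2.36, 0.72 and 4.99 CPM, though Cald1, also called higher, was at 72.3 CPM. Which cells the abundant RNAs came from was not tested. With scaling by library size alone, 3 of the list were lower.

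Of 21 genes of contraction signalling, 3 were higher, 3 lower and 15 not called. Ednra, the endothelin A receptor gene, rose by a log2 fold of 1.52 (5.37, 4.87 and 4.81 CPM in Grp78KO and 1.60, 1.63 and 2.01 CPM in controls). Ppp1r12b, a myosin phosphatase subunit, rose by 0.59 and the potassium channel subunit gene Kcnmb1 by 0.84. Ppp1r12a, a relative of Ppp1r12b, fell by 0.69, the kinase gene Rock1 by 0.46 and the calcium release channel gene Itpr1 by 0.96. Without library 3 labelled Grp78KO 6 of the list were higher, without control 2 1 was lower, and with scaling by library size alone none of the list was called lower by edgeR.

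SRF and its cofactors were not called higher. Srf was at 56.7, 61.3 and 61.6 CPM in Grp78KO and 67.9, 76.3 and 70.2 CPM in controls (log2 fold -0.26, SE 0.0848, edgeR adjusted p = 0.0484). The call ended in 11 of the alternatives. With scaling by library size alone Srf was level between the groups (log2 fold 0.0019, SE 0.101, edgeR adjusted p = 0.99). Mkl1, a myocardin-related cofactor of SRF, fell by 0.48 (edgeR adjusted p = 0.0205), a call that ended with library-size scaling (edgeR adjusted p = 0.293) and without control 2 or library 1 or 2 labelled Grp78KO (edgeR adjusted p = 0.075 to 0.079). Mkl2 was not called (log2 fold -0.19; edgeR adjusted p = 0.342). Of 14 tested transcription factors of this list, 5 were higher and 3 lower; Foxf2, Prrx1 and Tbx4, factors of lung mesenchyme, rose by log2 folds of 1.66, 1.89 and 1.29, and Gata6 fell by 0.62. Without control 1 or 2 or library 1 or 2 labelled Grp78KO 3 of this list were higher, and without control 2 or library 1 or 2 labelled Grp78KO 1 was lower, as with scaling by library size alone; with the replicate number as a block 5 were lower. Of 20 SRF targets that many cell types use, 11 were higher and 5 lower (median 0.34). Zyx, the focal adhesion protein zyxin, rose by 1.53, Ctgf by 0.97 and Cyr61 by 1.59, whereas the immediate early genes Egr1 and Fos fell by 0.86 and 0.56. Without library 1 or library 2 labelled Grp78KO, 5 of these targets were higher, and without control 2 or 3, 6 and 7 were. The lower ones numbered 2 without control 2 or library 1 labelled Grp78KO, 3 without library 2 or with upper-quartile factors, and 1 with scaling by library size alone.

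Non-muscle actomyosin, which epithelial cells use for their own tension, held more calls lower than higher. Of 12 genes, 1 was higher and 5 lower, with a median log2 fold of -0.22. Myh14, a non-muscle heavy chain, was at 243, 278 and 367 CPM in Grp78KO and 585, 730 and 679 CPM in controls (log2 fold -1.17, SE 0.178; adjusted p = 0.00304, edgeR). Myl12b, a non-muscle light chain, fell by 0.63, Diaph1 by 0.77 and Iqgap1 by 0.86, and Anln, a gene of dividing cells, rose by 1.69. Without control 1 or 2 or library 1 or 2 labelled Grp78KO, or without a filter on low counts, edgeR called 0 of the list higher (1 at an unadjusted p under 0.05). Beta actin, Actb, was not called (log2 fold 0.12; edgeR adjusted p = 0.533).

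**Figure D5:**
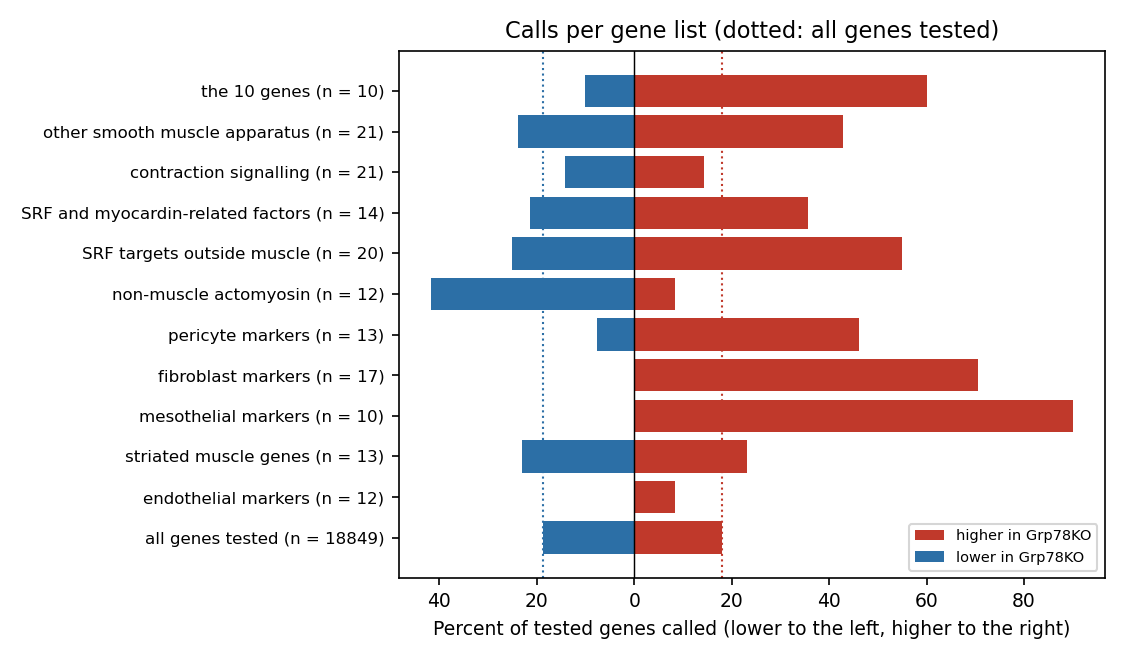
Percent of the tested genes of each list called higher (right) or lower (left) in the libraries labelled Grp78KO, with the number tested; dotted lines mark all 18849 genes tested, of which 18.0% were higher and 18.8% lower. Of the 10 genes, 6 were higher and 1 was lower, against 9 and 5 of 21 other apparatus genes and 1 and 5 of 12 non-muscle actomyosin genes.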

How the data were processed

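The authors deposited raw counts per gene symbol for 6 libraries; the labels' protocols name the NEBNext Ultra RNA kit and paired-end sequencing. The submitters' processing notes name mm10 and edgeR 3.7. Aligner, counting program and annotation: not given in the sources used here. Genes with 2 counts outnumbered those with 1 by 1.63 to 1.76 times in each library; mates of a pair may have been counted separately, in which case counting error is larger than the counts imply. The kit label does not state strand.

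Here, filterByExpr, TMM factors, robust dispersions and the quasi-likelihood F test of edgeR 4.0.16 (R 4.3.3) were run over the whole table with group as the only term; p-values were Benjamini-Hochberg adjusted over 18849 genes and called under 0.05. The SE is the log2 fold over the square root of F. CPM is scaled by TMM, and RPKM divides it by the exon length in GENCODE M21, from which coordinates were taken (48018 of 52550 symbols matched). The 10 genes and the gene lists were chosen with earlier results of these data known. Named genes were the 10, Hspa5, Srf and its cofactors, up to 4 of each list taken from the 4 with the lowest p, and the 5 genes nearest to the median profile; other list genes were named after their values were seen, and 1 gene of the apparatus list is counted but not reported here by name. The marker lists for AT2, airway and leukocyte cells served as checks: 12 of 12 AT2 markers were lower, 0 of 8 airway markers were called by edgeR (0 at an unadjusted p under 0.05; 5 lower without control 3), and 1 of 9 leukocyte markers, Lyz2, which AT2 cells also express, was lower (2 without library 3 labelled Grp78KO).

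Deviations from group means correlated at 0.162, 0.141 and 0.273 between same-numbered libraries, each over a threshold of 0.1, and at -0.22 to 0.11 between libraries with different numbers (control 2 with library 1 labelled Grp78KO highest), so the pairing rests on small correlations; the block was an alternative, with DESeq2 1.42.0, limma-voom (limma 3.58.1), other scalings and filters, halved counts, and leaving out libraries. The fit was checked on simulated counts. Every pair of libraries differed by more than counting noise (chi-square of 7.90 or more per gene, on halved counts). The spread within groups was uneven. Libraries 1 and 2 labelled Grp78KO differed by 7.90, and from library 3 by 168 and 136. Controls 1 and 2 differed by 19.4, and from control 3 by 111 and 77.2. In each group libraries 1 and 2 were thus far closer to each other than to library 3.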

Additional observations from a re-analysis of the deposited data

How the results depend on the processing

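Of the 10 genes, 7 were called (6 higher, 1 lower). A filter of 5 CPM in 3 libraries left 3 of them to test, all 3 called higher and 0 lower by edgeR (0 at an unadjusted p under 0.05). These 3, Acta2, Tagln and Des, reached 5 CPM before TMM scaling only in the libraries labelled Grp78KO. Genes kept in that way could hardly be called lower, so this fit does not bear on their direction. With scaling by library size alone, edgeR called 6 higher and 0 lower (1 lower at an unadjusted p under 0.05); that scaling moved the median gene by 0.26 on the log2 scale and made 82.2% of all calls higher, against 48.9% with TMM and 59.2% with upper-quartile factors. With 1 library left out, 3 to 7 were called, 3 to 6 higher and 0 to 1 lower, with 3 called without control 2 or without library 2 labelled Grp78KO, and 4 without library 1. Limma-voom called 5 and DESeq2 7. Over all genes, 6938 calls became 3706 to 8548 with 1 library left out and 10581 without both libraries numbered 3, where 7 of the 10 were called. With the replicate number as a block (same-numbered libraries treated as pairs) 6 of the 10 and 8415 of all genes were called; of the 10 genes, the block ended the call of Actg2 and no other. With library-size scaling Srf lost its call and was level between the groups (log2 fold 0.0019, SE 0.101, edgeR adjusted p = 0.99). Acta2, Des and Cspg4 were called under each alternative in which they were tested; the causes of the lost calls were not tested. The few counts of Myocd limit what its comparison can show.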

Other observations

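Genes of striated muscle were also read in these libraries. Of 20, 13 passed the filter, 3 were called higher and 3 lower, with a median log2 fold of 0.02. Without any 1 control or without library 1 labelled Grp78KO, 1 was called higher. Myh7, the slow and cardiac beta myosin heavy chain gene, was at 23.7, 26.2 and 49.8 CPM in the libraries labelled Grp78KO and at 90.8, 109 and 152 CPM in controls (log2 fold -1.82, SE 0.324, edgeR adjusted p = 0.00632). Its level per length was 3.86 RPKM in Grp78KO and 13.6 RPKM in controls, where it was above that of each of the 10 smooth muscle genes. Other sarcomere genes were far lower than Myh7 in controls, where its mean was 117 CPM. Control means were 0.534 CPM for Myh6, 0.634 CPM for Actc1, 0.274 CPM for Acta1, 0.473 CPM for Tnni3, 0.0634 CPM for Tnnc1 and 2.24 CPM for Ttn. The source of the Myh7 counts was not tested. Ttn, the giant sarcomere protein titin, fell by 2.34 on the log2 scale and the calcium channel gene Ryr2 by 1.05 (edgeR adjusted p = 0.0371). The groups of Ryr2 overlapped, at 2.84, 3.11 and 4.87 CPM in Grp78KO and 4.63, 7.38 and 10.5 CPM in controls. Myl7, an atrial light chain gene, rose by a log2 fold of 2.25, with low values of 0.865 to 1.57 CPM in Grp78KO and 0.222 to 0.299 CPM in controls, and Myl4 by 0.82. Tnnt2 was at 0.156 to 0.387 CPM in Grp78KO and 0.0351 to 0.0961 CPM in controls (log2 fold 1.89, edgeR adjusted p = 0.0279), a call that ended without any 1 control or without library 1 or 2 labelled Grp78KO (edgeR adjusted p = 0.0588 to 0.106). Myh2 had no count in any library.

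The median of the 10 genes lay, on the log2 scale, 1.39, 1.47 and 0.33 above the mean of the controls in libraries 1, 2 and 3 labelled Grp78KO. Of 13967 other tested genes at a mean of 1 CPM or more, the 5 nearest to this profile by Euclidean distance over 6 libraries were Pcbp3, Ncl, Hsd11b1, Pold2 and Dph5, with distances of 0.204 to 0.242. Ncl, which encodes the nucleolar protein nucleolin, was at 530, 563 and 274 CPM in Grp78KO and 189, 210 and 199 CPM in controls.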
